A study of Mus musculus with 4 samples.

Results

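The 10 genes described here encode the FOS and JUN subunits of the AP-1 transcription factor (Fos, Fosb, Fosl1, Fosl2, Jun, Junb, Jund), the related factor Atf3, and 2 further immediate early genes, Egr1 and Ier2. They were taken by name from the gene tables of 4 RNA-seq libraries and are 10 of 24319 gene names in all. The libraries came from 2 prostate tumours of TRAMP mice and 2 normal mouse prostates. The tumours were from F1 males heterozygous for a transgene in which the rat probasin promoter, active in prostate epithelium, drives SV40 large T antigen; their sires were homozygous C57BL/6 TRAMP males and their dams wild-type FVB females. They are labelled late stage and 24 weeks of age, and the protocol gives a range of 24 to 28 weeks. The normal prostates were from wild-type F1 males of the same 2 strains at 22 weeks. The labels name no drug treatment. Since they do not state that each tumour came from its own mouse, the p-values below cover only the spread among these 4 libraries, which may in part be technical.

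AP-1 is a dimer of basic leucine zipper (bZIP) proteins. JUN proteins pair with themselves or with FOS proteins, and FOS proteins need a JUN partner to bind DNA. Fos, Fosb, Jun, Junb, Egr1, Atf3 and Ier2 are induced within minutes by growth factors or stress through MAP kinases, serum response factor and CREB/ATF proteins, and many of their mRNAs are short-lived. Jund is the more constant member of the family.

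Jun and Fos are the members whose control by such elements is best known, so the 250 bases before the RefSeq transcription start (GRCm38.p6) are shown for these genes, 5′ to 3′ on the gene's strand. The Jun window lies on the minus strand (chr4:95052223-95052472) and the Fos window on the plus strand (chr12:85473640-85473889). Capitals mark the letters TTACCTCA and TGACATCA in Jun, known as its jun2 and jun1 elements, and TGACGT, the core of a CRE, and TATAAA in Fos.
Jun: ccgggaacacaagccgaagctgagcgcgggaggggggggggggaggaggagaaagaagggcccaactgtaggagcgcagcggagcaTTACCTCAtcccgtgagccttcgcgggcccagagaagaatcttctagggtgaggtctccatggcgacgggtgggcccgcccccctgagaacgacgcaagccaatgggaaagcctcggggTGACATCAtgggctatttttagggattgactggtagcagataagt
Fos: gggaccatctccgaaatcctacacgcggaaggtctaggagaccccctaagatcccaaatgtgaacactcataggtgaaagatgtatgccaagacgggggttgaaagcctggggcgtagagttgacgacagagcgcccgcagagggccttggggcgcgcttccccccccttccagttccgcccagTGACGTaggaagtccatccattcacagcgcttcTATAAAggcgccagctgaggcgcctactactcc
In Jun, TTACCTCA began 164 bases and TGACATCA 45 bases before the start. In Fos, TGACGT began 66 bases and TATAAA 33 bases before it. Over both strands, TTACCTCA was found in 0.728% of 32851 RefSeq promoters of this length, TGACATCA in 2.93%, TGACGT in 6.47% and TATAAA in 12.4%. RefSeq promoters were matched for 7 of the 10 genes, all but Fosl1, Egr1 and Ier2. Among the 7, TGACGT was also found in Atf3, and GCGNGGGCG, the letters bound by EGR proteins, in Fosb and Fosl2, against 4.7% of all promoters. The AP-1 element TGANTCA (6.75% of all promoters) and the CArG box (1.47%) matched 0 of the 7 windows. Sequence farther than 250 bases before the start was not searched, and Egr1 had no window. The 0 therefore does not show that these genes lack such elements. No motif overlapped another in the 2 windows shown.

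The values are FPKM (fragments scaled by transcript length and mapped fragments) divided by a factor that sets the median gene equal in all libraries, called scaled FPKM below. This scaling removed a log2 shift of 0.94 between the groups. Fragments were implied from the width of the authors' intervals, and the libraries held 1435619 and 1143599 implied fragments in the tumours and 986717 and 1580686 in the normal prostates. The labelled tissue was checked against marker lists. Summed luminal epithelial markers lay at 317 and 1114 scaled FPKM in the tumours, against 2068 and 2463 in the normal prostates, and 7 of the 8 lay below both normal prostates in both tumours. The exception was Krt8, at 0.258 and 438 in the tumours, against 178 and 191 in the normal prostates. Markers listed at 0 in tumour 1 included Cdh1 and Spdef, while Hoxb13 alone made up 295 of its luminal sum. Smooth muscle markers lay at 23.5 and 124 in the tumours, against 646 and 599.8 in the normal prostates, with 7 of 8 below both normal prostates in both tumours. Myh11, Cnn1 and Actg2 were listed at 0 in tumour 1, where Smtn, at 19.3, was above its level in the 3 other libraries. Neuroendocrine markers lay at 499.9 and 820.3 in the tumours, against 0.408 and 0.914 in the normal prostates. Tumour 1 therefore stood apart from tumour 2 and from both normal prostates in most of its epithelial and muscle markers. In bulk tissue, fewer cells of a type and less RNA per cell cannot be told apart.

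Jun rose 5.85-fold in the tumours and was the most abundant of the 10 genes there, while Jund, the most abundant in the normal prostates, fell 2.43-fold. Ier2, an immediate early gene that encodes a nuclear regulatory protein, fell 5.31-fold. The tested FOS genes, Egr1, Atf3 and Junb did not pass the test. Of the 10 members 1 rose (Jun) and 2 fell (Jund and Ier2), 5 were tested and did not pass, and 2 (Fosb and Fosl1) were too low to be tested. Over all 13162 genes tested with limma, 9.85% were called higher and 8.27% lower in the tumours at an adjusted p under 0.05. Higher genes were 54.4% of these calls, and 89.6% of the calls made with FPKM as deposited. Both tumours lay above both normal prostates for 3 members (Jun, Egr1, Fosb) and below them for 3 (Junb, Jund, Ier2), while 37.7% of tested genes lay wholly above and 33.3% wholly below. The last 2 counts are close to those shares and are no result about these genes.

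**Figure D1:**
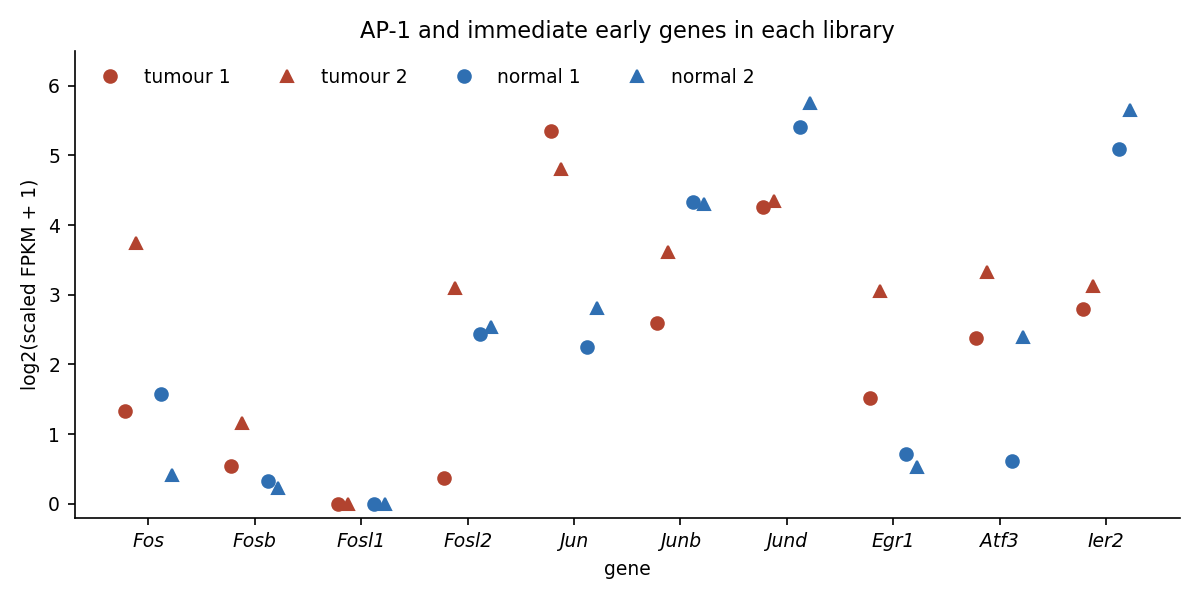
Each point is the level of a gene in a library, as log2(scaled FPKM + 1), for the 2 tumours (red, left) and the 2 normal prostates (blue, right) of each gene. Jun is high in both tumours and Jund, Junb and Ier2 in both normal prostates, while Fos, Fosl2 and Egr1 are spread widely between the tumours.

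Jun, the founding JUN subunit (chromosome 4, 95049036 to 95052222, minus strand), had 39.7 and 27.0 scaled FPKM in the tumours, against 3.74 and 6.02 in the normal prostates. Both tumours were several-fold above both normal prostates, and the groups did not overlap. The log2 fold change was 2.55 (SE 0.41), a ratio of 5.85 on the log2(scaled FPKM + 1) scale, with a limma adjusted p of 0.0267. Behind these values stood 283 and 165 implied fragments in the tumours and 11.9 and 28.0 in the normal prostates. With the spread of the lone tumour taken from the normal prostates, the estimate was 2.33 without tumour 1 and 2.81 without tumour 2. Without normal 1 it was 2.23 (adjusted p = 0.189) and without normal 2 it was 2.84 (adjusted p = 0.170), settings under which limma called 0 genes at all, while 2434 and 2354 genes had an unadjusted p under 0.05. Jun overlaps the opposite-strand gene Junos in GENCODE M21, and no source used here states whether reads were counted by strand.

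Jund, the JUN subunit least dependent on stimulation (chromosome 8, 70697739 to 70700616, plus strand), had 18.1 and 19.3 scaled FPKM in the tumours, against 41.4 and 52.8 in the normal prostates. The tumour values were nearly equal and lay below both normal values. On the log2 scale it fell by 1.28 with an SE of 0.29 and a limma adjusted p of 0.0466, on 117 and 106 implied fragments in the tumours and 119 and 217 in the normal prostates. This call sat close to the threshold. It was lost with FPKM as deposited (-0.37, adjusted p = 0.345), which keeps the shift of 0.94 in every gene. It was also lost without normal 1 (-1.51, adjusted p = 0.246) and without normal 2 (-1.14, adjusted p = 0.341). Jund overlaps the opposite-strand gene Gm11175.

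Junb, a JUN subunit that can restrain Jun (chromosome 8, 84976909 to 84978748, minus strand), had 5.04 and 11.3 scaled FPKM in the tumours, against 19.0 and 18.7 in the normal prostates. Both tumours lay below the closely matched normal pair, but the tumours differed from each other. Its log2 fold change was -1.20 (SE 0.46, limma adjusted p = 0.124) and did not pass. Without tumour 2, with the spread taken from the normal prostates alone, Junb had a log2 fold change of -1.68. It overlaps Prdx2 on the opposite strand, an abundant gene at 266 and 214 scaled FPKM in the tumours and 246 and 210.3 in the normal prostates.

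The make-up of the JUN family within each library does not depend on scaling between libraries. Jun made up 63.1% and 47.0% of the summed FPKM of Jun, Junb and Jund in the tumours, against 5.83% and 7.77% in the normal prostates. Jund made up 28.9% and 33.5% in the tumours, against 64.5% and 68.1% in the normal prostates. Junb made up 8.03% and 19.6% in the tumours, against 29.7% and 24.1% in the normal prostates. In none of the 3 shares did the groups overlap, but the shares sum to the whole and are not 3 separate observations. In scaled FPKM, 37.7% of tested genes lay wholly above and 33.3% wholly below, so groups that do not overlap were common. The ratio of Jun to Jund was 2.19 and 1.40 in the tumours, against 0.0904 and 0.114 in the normal prostates. The summed scaled FPKM of the 3 genes was 62.8 and 57.6 in the tumours, against 64.2 and 77.4 in the normal prostates, and the groups lay close together. Unlike the shares this sum depends on the scaling, since with FPKM as deposited it was 84.4 and 86.5 in the tumours, against 50.9 and 53.3 in the normal prostates. These shares were not tested, because with 2 libraries in each group the smallest two-sided p of an exact permutation test is 0.333.

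**Figure D2:**
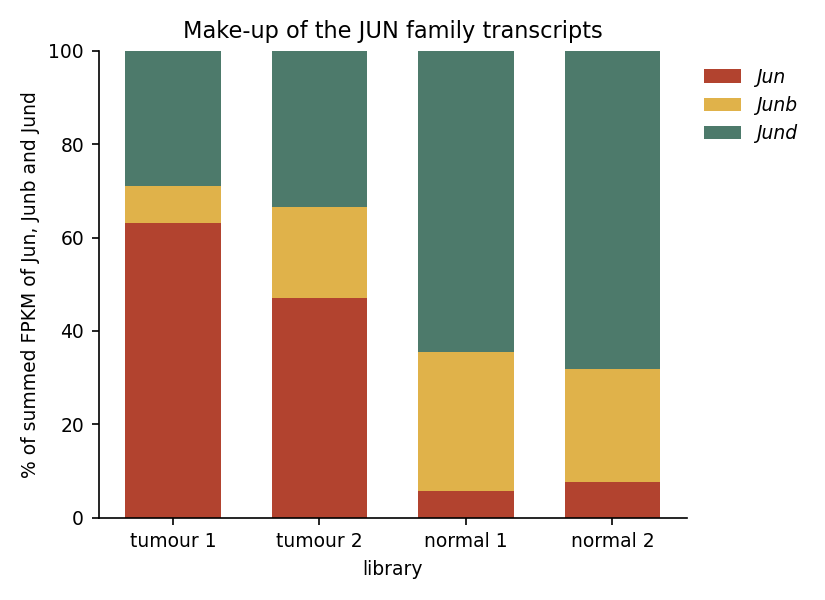
Stacked bars give the share of Jun, Junb and Jund in the summed FPKM of the 3 genes, in percent, for each library. Jun holds 63.1% and 47.0% in the tumours and 5.83% and 7.77% in the normal prostates, where Jund holds the largest share.

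The FOS genes were low, and the tumours differed widely from each other. Fos, the classical partner of JUN (chromosome 12, 85473901 to 85477270, plus strand), had 1.53 and 12.3 scaled FPKM in the tumours, against 1.97 and 0.333 in the normal prostates. Only tumour 2 was high, and tumour 1 lay between the normal values. The log2 fold change was 1.55 (SE 0.94, limma adjusted p = 0.272), or 2.75 without tumour 1 and 0.33 without tumour 2. There were 7.0 and 47.5 implied fragments of Fos in the tumours and 4.0 and 1.0 in the normal prostates, so it was barely measured outside tumour 2.

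Fosl2, the FOS protein FRA-2 (chromosome 5, 32136472 to 32157839, plus strand), had 0.292 and 7.51 scaled FPKM in the tumours, against 4.44 and 4.79 in the normal prostates. The tumours lay on either side of a closely matched normal pair. Over all libraries the log2 fold change was -0.76 (SE 0.96, limma adjusted p = 0.585). It was 0.66 without tumour 1 and -2.01 without tumour 2, so its direction depended on which tumour was used. Implied fragments of Fosl2 were only 4.0 in tumour 1, against 86.3 in tumour 2.

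Fosb, a close relative of Fos (chromosome 7, 19302696 to 19310045, minus strand), had 0.462 and 1.22 scaled FPKM in the tumours, against 0.261 and 0.176 in the normal prostates. The groups did not overlap, but there were only 4.0 and 9.0 implied fragments in the tumours and 1.0 in each normal prostate, and only 1 library reached an FPKM of 1. Fosl1, the FOS protein FRA-1 (chromosome 19, 5447698 to 5455938, plus strand), was listed at 0 in all 4 libraries. Fosl2 held 12.8% and 35.7% of the summed FPKM of the 4 FOS genes in the tumours, against 66.6% and 90.4% in the normal prostates. FOS transcripts made up 3.51% and 26.8% of the combined FOS and JUN FPKM in the tumours, against 9.41% and 6.40% in the normal prostates, so the tumours lay on both sides of the normal prostates.

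Ier2 (chromosome 8, 84661331 to 84662852, minus strand) had 5.95 and 7.73 scaled FPKM in the tumours, against 33.2 and 49.2 in the normal prostates. Each tumour was far below each normal prostate, and the tumours were close to each other. The estimate was -2.41 on the log2 scale, with an SE of 0.36 and a limma adjusted p of 0.0255, and GENCODE M21 has no gene on the opposite strand there. The log2 fold change was -2.17 without tumour 1 and -2.54 without tumour 2. Without normal 1 it was -2.76 (adjusted p = 0.167) and without normal 2 it was -2.18 (adjusted p = 0.218). With FPKM as deposited it was -1.53 and still passed (adjusted p = 0.0378). Ier2 ranked above 68.5% and 71.6% of all gene names in the tumours, against 90.9% and 93.5% in the normal prostates. No scaling factor changes these ranks, but they shift with how many genes are detected. An FPKM of 1 was reached by 12236 and 13863 genes in the tumours, against 11090 and 10763 in the normal prostates.

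Egr1, a zinc finger factor induced with Fos through serum response elements (chromosome 18, 34861207 to 34864956, plus strand), had 1.87 and 7.28 scaled FPKM in the tumours, against 0.649 and 0.439 in the normal prostates. Both tumours were above both normal prostates, and tumour 2 was the highest. The log2 fold change was 1.66 (SE 0.61, limma adjusted p = 0.116) and did not pass. Only the tumours reached an FPKM of 1, so Egr1 entered the test through the group in which it was high, and its normal values rested on 2.0 implied fragments each.

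Atf3, a stress-induced bZIP factor that pairs with JUN proteins (chromosome 1, 191170297 to 191183333, minus strand), had 4.19 and 9.04 scaled FPKM in the tumours, against 0.525 and 4.26 in the normal prostates. Normal 2 lay just above tumour 1, so the groups overlapped. The log2 fold change was 1.35 (SE 0.76, limma adjusted p = 0.242). Atf3 was the only member whose scaled Cufflinks intervals did not overlap between the normal prostates. They were 0 to 1.57 in normal 1 and 1.79 to 6.73 in normal 2, on only 1.0 and 11.9 implied fragments. Atf3 overlaps the opposite-strand gene Gm24748.

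**Figure D3:**
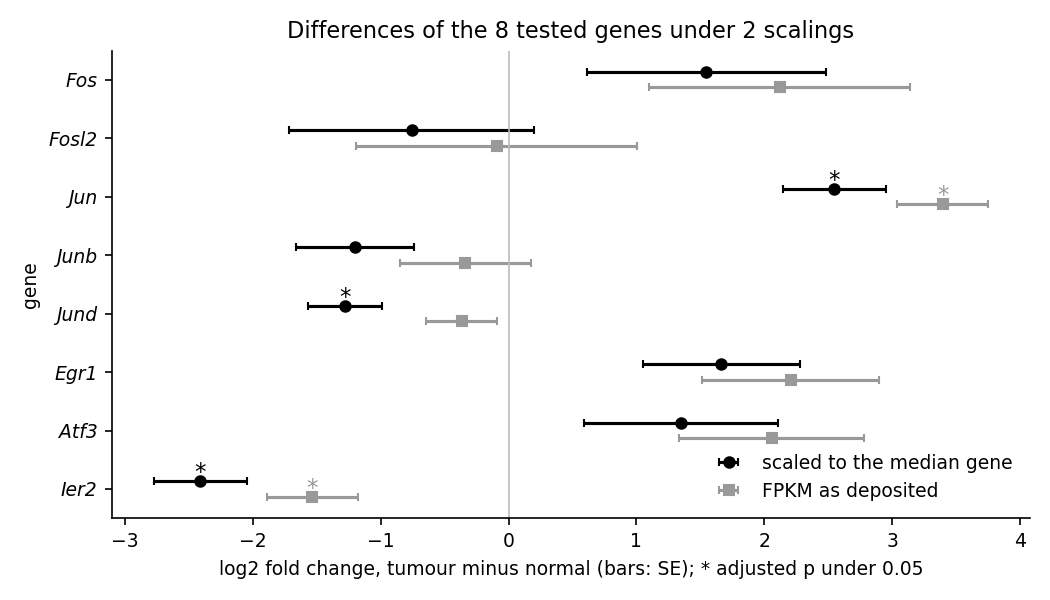
Points are log2 fold changes, tumour minus normal, of the 8 tested genes with their standard errors, after scaling to the median gene (black) and with FPKM as deposited (grey); stars mark an adjusted p under 0.05. Jun and Ier2 carry a star under both, Jund only after scaling.

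By scaled FPKM, which is per transcript length, the order of the members differed between the groups. In the tumours Jun (mean 33.4) was first and Jund (mean 18.7) next, with no overlap between these neighbours or between Jund and Junb. They were followed by Junb at a mean of 8.16, Fos at 6.93, Ier2 at 6.84, Atf3 at 6.62, Egr1 at 4.58 and Fosl2 at 3.90, each of which overlapped the next, and by Fosb at 0.843. In the normal prostates Jund (mean 47.1) and Ier2 (mean 41.2) overlapped, Junb followed at 18.9 without overlap, and Jun (4.88), Fosl2 (4.61) and Atf3 (2.39) lay below it, with Jun overlapping both. Fos (1.15), Egr1 (0.544) and Fosb (0.218) were lowest of those detected there, with at most 4.0 implied fragments in a library and overlapping Cufflinks intervals, so their order there is not resolved. Jun ranked above 93.5% and 90.8% of all gene names in the tumours, against 64.3% and 70.4% in the normal prostates.

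Most of the members had higher values in tumour 2 than in tumour 1. Of the 9 members above 0 in the tumours, 8 had the higher scaled FPKM in tumour 2, all but Jun, while 46.9% of all tested genes did. This was not particular to the members. Among tested genes of the lists below, it held for 26 of 36 other immediate early genes and 16 of 20 target genes. It held for 8 of 11 hypoxia and 8 of 11 heat shock genes, but for 11 of 21 bZIP partners and 12 of 30 upstream genes. The ratio of tumour 2 to tumour 1 in scaled FPKM was 25.7 for Fosl2, 8.07 for Fos, 3.89 for Egr1, 2.65 for Fosb, 2.24 for Junb and 2.16 for Atf3. It was 1.30 for Ier2, 1.06 for Jund and 0.682 for Jun, the genes called between the groups. The scaled Cufflinks intervals of tumour 2 lay wholly above those of tumour 1 for 4 members (Fos, Fosl2, Egr1 and Junb) and wholly below for 1 (Jun). These intervals cover estimation within a library, and each tumour is a single sample, so the difference between them was not tested. Markers of other cell types also had higher sums in tumour 2, by 6 of 8 fibroblast, 8 of 8 endothelial and 9 of 9 macrophage markers. The 2 fibroblast markers that were higher in tumour 1 were Pdgfra and Fbln1. Summed fibroblast markers were at 428 scaled FPKM in tumour 2 and 86.1 in tumour 1, and endothelial markers at 44.9 in tumour 2 and 5.005 in tumour 1. Macrophage markers were at 514 in tumour 2 and 168 in tumour 1, and the basal epithelial markers Krt5, Krt14, Trp63, Krt15 and Col17a1 were listed at 0 in tumour 1. Trp63 was listed at 0 in tumour 2 too, where Col17a1 was at only 0.744. Only 3 of 8 T and NK cell markers were higher in tumour 2. The part of these markers in the difference was not tested.

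Of 45 other immediate early genes listed, 36 were tested: 4 rose, 2 fell and 30 did not pass, with a median log2 fold change of -0.03 against 0.07 over all genes tested. The calls were 11.1% higher and 5.56% lower, near the 9.85% and 8.27% of all genes tested, and are no result about the list. Of the 4 that rose, Ier5, Plk3 and Arc were below an FPKM of 1 in both normal prostates, so they entered the test through the tumours, in which they were high. With an FPKM of at least 1 required in all 4 libraries, 0 of 28 tested rose and 3 fell by limma. Of all genes tested there, 6.2% were higher and 11.6% lower. At an unadjusted p under 0.05 the list had 3 higher and 7 lower, where 3341 of all 8956 genes tested passed in either direction. Voom, fitted over all 13162 genes, called 2 of the 36 higher and 2 lower, where 7.955% of all genes were higher and 7.506% lower. Ier5, an immediate early gene related to Ier2, had 20.7 and 5.70 scaled FPKM in the tumours, against a listing at 0 in normal 1 and 0.616 in normal 2 (adjusted p = 0.0427). Socs3, a feedback inhibitor of cytokine signalling, had 9.01 and 27.3 in the tumours, against 1.85 and 0.750 in the normal prostates (log2 fold change 2.91, SE 0.66, adjusted p = 0.0449). Plk3, a stress-responsive kinase, had 5.15 and 3.59 in the tumours, against a listing at 0 in normal 1 and 0.291 in normal 2 (adjusted p = 0.0317). Ier5 and Plk3 thus rested on at most 3.0 implied fragments in a normal prostate, and Plk3 overlaps Tctex1d4 on the opposite strand. The other gene that rose was Arc, a neuronal activity gene (adjusted p = 0.0379).

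Ier3, an immediate early regulator of apoptosis, fell as Ier2 did. It had 4.65 and 7.11 scaled FPKM in the tumours, against 32.5 and 36.9 in the normal prostates (log2 fold change -2.40, SE 0.36, adjusted p = 0.0251). Srf, the serum response factor that drives Fos and Egr1 and also muscle genes, had 8.60 and 6.00 in the tumours, against 22.0 and 22.2 in the normal prostates (log2 fold change -1.50, SE 0.35, adjusted p = 0.0489), and overlaps Gm26904. The smooth muscle markers given above were lower in both tumours too, and their part in the Srf result was not tested. Without tumour 1 the list had 7 higher and 5 lower of 31 tested, and without tumour 2 it had 3 and 12 of 31. Over all genes tested, 11.6% were higher and 19.97% lower without tumour 1, and 19.7% and 30.8% without tumour 2, and the counts of the lists that follow are to be read against these shares. With FPKM as deposited the list had 11 higher and 1 lower, where 28.0% of all genes were higher and 3.24% lower.

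Among 26 other bZIP partners, 21 were tested, of which 1 rose, 1 fell and 19 did not pass, with a median of 0.17. That is 4.76% in each direction, against 9.85% higher and 8.27% lower over all genes tested. The gene that fell was Creb3, a membrane-bound bZIP factor, which had 18.0 and 21.5 scaled FPKM in the tumours, against 54.3 and 47.3 in the normal prostates (log2 fold change -1.32, SE 0.28, adjusted p = 0.0421). Creb3 overlaps Gba2 and Tln1. Without tumour 1 the list had 1 higher and 3 lower, without tumour 2 it had 4 and 4, and with FPKM as deposited it had 6 and 0. Atf2, which pairs with JUN on the jun elements, had 30.3 and 17.2 in the tumours, against 15.2 and 13.4 in the normal prostates (adjusted p = 0.273).

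Of 30 upstream kinases and factors, all tested, 0 rose, 3 fell and 27 did not pass, with a median of 0.12. Of all genes tested, 9.85% were higher and 8.27% lower, so the 10% lower here is no result about the list. By voom 0 of the list rose as well. By limma 2 were higher and 6 lower at an unadjusted p under 0.05, where 5242 of all 13162 genes tested passed in either direction. Besides Srf, Mapk14, the stress kinase p38-alpha, had 24.4 and 19.2 scaled FPKM in the tumours, against 73.3 and 66.7 in the normal prostates (log2 fold change -1.65, SE 0.28, adjusted p = 0.0297). Rps6ka1, a kinase downstream of ERK, had 8.76 and 11.9 in the tumours, against 40.5 and 32.0 in the normal prostates (log2 fold change -1.72, SE 0.34, adjusted p = 0.0358), and overlaps Gm12977. Mapk8, the gene of a JUN N-terminal kinase, had 10.7 and 5.38 in the tumours, against 3.19 and 2.27 in the normal prostates (adjusted p = 0.135). The count was 1 higher and 6 lower without tumour 1, 4 and 9 without tumour 2, and 4 and 0 with FPKM as deposited. It was 0 higher and 1 lower under quantile normalization, and 0 and 4 by voom.

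Of 25 textbook target genes of AP-1 and EGR1, 20 were tested: 1 rose, 0 fell and 19 did not pass, with a median of 1.11. That is 5% higher and 0% lower, against 9.85% and 8.27% over all genes tested. The gene that rose was Spp1, which encodes the secreted glycoprotein osteopontin, at 51.5 and 43.7 scaled FPKM in the tumours, against a listing at 0 in normal 1 and 0.517 in normal 2 (adjusted p = 0.0195). Its normal values rested on at most 0.2 implied fragments, and it entered the test through the tumours, in which it was high. Genes just short of the threshold went both ways. Hmox1, the stress-induced heme oxygenase, had 8.12 and 34.8 in the tumours, against 1.35 and 1.38 in the normal prostates (adjusted p = 0.0551). Vim, the vimentin gene, had 32.1 and 98.0 in the tumours, against 11.4 and 11.97 in the normal prostates (adjusted p = 0.0607). Ccnd1, the cyclin D1 gene, had 0.92 and 5.55 in the tumours, against 22.7 and 18.1 in the normal prostates (adjusted p = 0.0597). Without tumour 1 the list had 4 higher and 2 lower of 13 tested and a median of 0.44. Without tumour 2 it had 3 higher and 4 lower of 12 and a median of -0.32. These fits also tested fewer genes, and with all libraries and an FPKM of at least 1 required in each, the median of the 9 genes left was -0.51. With FPKM as deposited 6 rose, and voom called 1 higher and 0 lower. At an unadjusted p under 0.05 limma had 7 higher and 1 lower. Over all 13162 genes tested, 5242 passed at that level in either direction, so passing it was common.

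Lists of other stress responses were counted in the same way. Their counts are to be read against the 9.85% higher and 8.27% lower over all genes tested. Of 12 hypoxia genes 11 were tested, 5 rose, 0 fell and 6 did not pass, with a median of 1.22. Ndrg1, a stress gene, had 13.6 and 17.0 scaled FPKM in the tumours, against 2.42 and 1.88 in the normal prostates (log2 fold change 2.37, SE 0.40, adjusted p = 0.0282). Adm, which encodes the peptide adrenomedullin, rose by 1.88 (SE 0.39), but it was below an FPKM of 1 in both normal prostates and so entered the test through the tumours. Ldha, lactate dehydrogenase A, rose by 1.27 (SE 0.26), and the others that rose were Pgk1 and Higd1a. The hypoxia list had 5 higher and 1 lower of 9 tested without tumour 1, and the same counts without tumour 2. It had 2 higher by voom, where 7.955% of all genes tested were higher. With no minimum FPKM it had 0 higher, where only 1.435% of 17072 genes tested were. Of 11 heat shock genes 1 rose, 0 fell and 10 did not pass, with a median of 0.58. Hsp90aa1, an inducible HSP90, had 417 and 498.5 in the tumours, against 60.7 and 88.8 in the normal prostates (log2 fold change 2.62, SE 0.29, adjusted p = 0.0195). Hspa1a, an inducible HSP70, had 1.76 and 95.4 in the tumours, against 9.39 and 10.4 in the normal prostates, so its tumour values lay on either side of the normal pair as those of Fosl2 did. The heat shock list had 7 higher and 0 lower without tumour 1, and 4 and 4 without tumour 2. At an unadjusted p under 0.05 limma had 6 higher and 0 lower in the hypoxia list and 3 and 0 in the heat shock list. Over all 13162 genes tested, 5242 passed at that level in either direction. Voom had 0 lower in both lists.

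**Figure D4:**
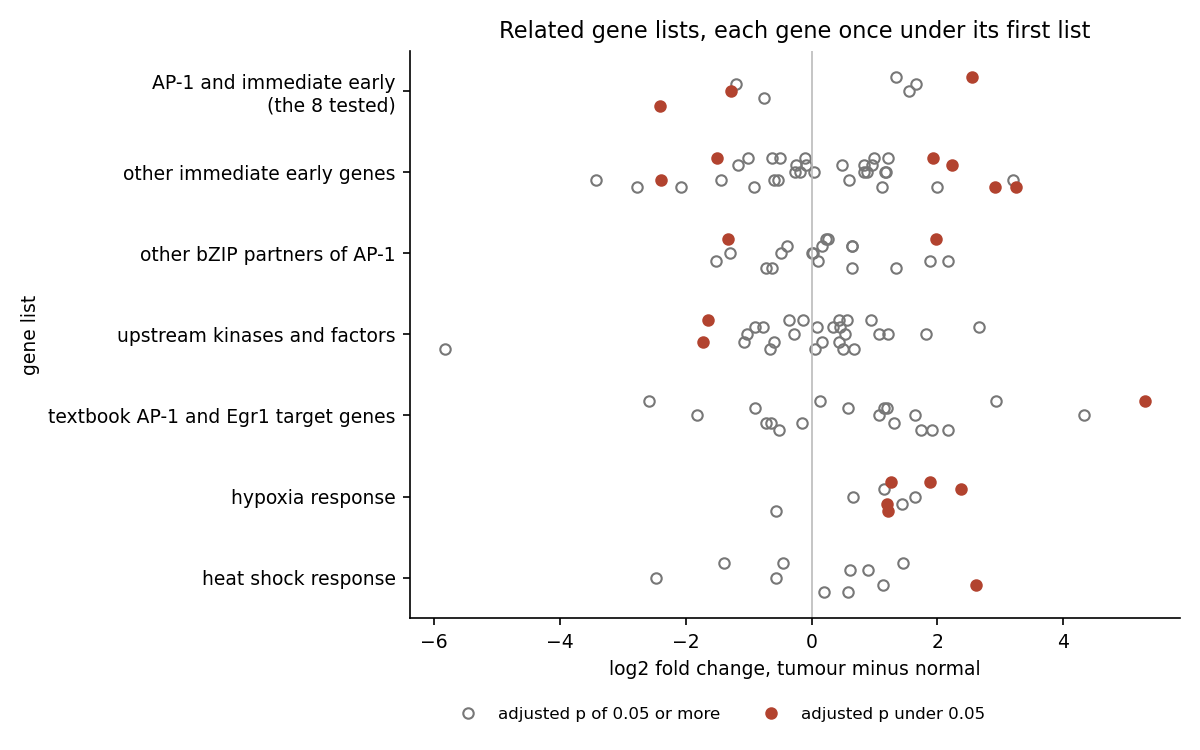
Points are log2 fold changes, tumour minus normal, of the tested genes of each list, filled where the adjusted p was under 0.05; a gene in several lists is drawn under its first. The members and the other immediate early genes fall on both sides of 0, while 9 of the 11 tested hypoxia genes lie above it. Those below it are Slc2a1 (-0.56) and Vegfa (-0.72), the latter drawn under the target genes.

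The genes whose profile over the 4 libraries was most like the average of the 8 tested members were Ppm1h, Tax1bp3, Anxa5, Tssc1 and Csf1, by Euclidean distance between centred log2 values (0.0535 to 0.138). The averaged profile was -0.44 in tumour 1 and 0.62 in tumour 2, against -0.21 and 0.03 in the normal prostates. It averages genes that moved in opposite directions, and over 4 libraries many genes can match it.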

How the data were processed

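RNA-seq libraries of 2 TRAMP tumours and 2 normal prostates were used. The authors deposited a Cufflinks gene table per library with FPKM and its interval, per the file headers; the build GRCm38 (mm10), TopHat2 2.0.8, Trim Galore, Cuffdiff 2.1.1 and Cufflinks 2.1.1 are named per the submitters' processing notes. No source used here gives the annotation, the strand setting or whether libraries were scaled. Of 24883 rows in a table, 27 with names turned into dates were left out, and 817 under 280 repeated names were summed. Deposited starts count from 0 (start plus 1 equalled the RefSeq start for 61.8% of names, the start itself for 3.19%), so 1 was added.

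FPKM are not counts. Implied fragments were taken from the interval width as 2 Poisson standard deviations, and 71.0 to 72.5% of low values came out within 0.1 of a whole number. Scaling used median-of-ratios factors from 11469 genes above 0 in all 4 libraries (1.34 and 1.50 for the tumours, 0.793 and 0.689 for the normal prostates). Genes that reached a deposited FPKM of 1 in 2 or more libraries, 13162 in all, were tested on log2(scaled FPKM + 1) with limma 3.58.1 in R 4.3.3, with an intensity trend, two-sided, with Benjamini-Hochberg adjustment over all of them and a threshold of 0.05. Every adjusted p in the text is from this test unless another is named. There were 2 residual degrees of freedom, to which the prior added 2.85. A fold change on this scale understates the change of low genes. The procedure was tested on simulated data. Figures used matplotlib 3.10.9 in Python 3.11.15.

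All 10 members are named. From each related list up to 3 called genes per direction with groups that do not overlap were named, largest change first, and further genes (Arc, Pgk1, Higd1a, Atf2, Mapk8, Ccnd1, Hmox1, Vim, Hspa1a, Prdx2) were chosen after their values were seen. Some genes that this rule names are not reported here. The members and lists were chosen with earlier results of these data known. The alternatives were other scalings, a pseudocount of 0.1, no filter, a stricter filter, no intensity trend, voom on implied fragments and leaving out each library.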

Additional observations from a re-analysis of the deposited data

How the results depend on the processing

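Jun was called higher under 7 of the 8 alternatives that kept all libraries. Without the filter on low values 0 members were higher and 0 lower, with adjusted p of 0.0526 for Jun, 0.0665 for Jund and 0.0511 for Ier2. Under that setting only 1.435% of all genes tested were called higher and 1.459% lower, so the loss was not particular to the members. The count of lower members was 1 in place of 2 with FPKM as deposited, with the FPKM sum without genes above 1%, under quantile normalization and without the intensity trend, each time because Jund was lost. Over all genes, 54.4% of the calls were higher, against 89.6% with FPKM as deposited and 82.1% with that FPKM sum. Leaving out 1 library gave 0 to 2 higher and 0 to 4 lower members; such fits take the spread of the lone library from the other group. Among the 8 tested members the direction turned for Fosl2, at 0.66 without tumour 1, against -2.01 without tumour 2, and in no other fit that was made. Some fits gave no value because of the filter: without either tumour for Egr1, and with all 4 libraries required for Fos, Fosl2, Egr1 and Atf3. Over all alternatives run, Jun lay between 2.23 and 3.40, Ier2 between -2.76 and -1.53 and Jund between -1.51 and -0.37 on the log2 scale. The other immediate early genes had 0 to 11 higher and 0 to 12 lower, the bZIP partners 0 to 6 and 0 to 4, the upstream genes 0 to 4 and 0 to 9, the target genes 0 to 6 and 0 to 4, the hypoxia genes 0 to 8 and 0 to 1 and the heat shock genes 0 to 7 and 0 to 4. The cause of these changes was not tested. No paired analysis was possible because the replicate numbers were given here in accession order and pair no libraries. Depth limits Fos, Fosb and Egr1, each at 4.0 implied fragments or fewer in the normal prostates. It also limits Atf3, at 1.0 in normal 1, and Fosl2, at 4.0 in tumour 1.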
